A study of Mus musculus with 74 samples.

Results

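Fragments of the mitochondrial tRNA for arginine (*mt-TR*) were compared between mice that carried the same H mtDNA with a different nuclear genome. The members are the lung libraries labelled CH or HH in batches 2 and 3, which were 22 of the 74 libraries of the series (10 CH and 12 HH). They held 1233 of the 5606 reads (22.0%) and 263 of the 500 sequences counted. In the two-letter code the first letter gives the nuclear genome and the second the mtDNA, with C for C57BL/6J and H for C3H/HeN. CH is therefore a mitochondrial-nuclear exchange (MNX) strain with a C nuclear genome and H mtDNA, and HH is the wild-type H strain. The lungs came from healthy adult mice of both sexes that received no treatment, and the RNA was sequenced without removal of modifications or repair of fragment ends. Per the methods of the study, MNX lines were made by pronuclear transfer and bred in-house, whereas wild-type mice came from commercial vendors, so nuclear genome and source of the animals cannot be told apart here. Labels state that intact RNA samples were pooled by precipitation, and whether a library holds more than 1 animal is not given in the sources used here. If the samples of a group were not from separate animals, the p-values below measure only the spread between these samples. Since the counts cover *mt-TR* alone, no marker of lung or of any cell type could be examined, and fewer cells and less *mt-TR* RNA per cell cannot be told apart.

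The genotypes were not spread evenly over sex and batch. CH females were all of batch 3 (4 libraries), CH males were of batch 2 (4) and batch 3 (2), HH females were of batch 2 (5) and batch 3 (1), and HH males were of batch 2 (4) and batch 3 (2). HH females of batch 2 have no CH counterpart, so tests were made within males of batch 2, males of batch 3 and females of batch 3. In males of batch 2 the library names of CH and of HH carry different prefixes. What the prefixes mark is not stated, and in this group genotype and prefix cannot be told apart. A further 3 CH females belonged to batch 1, which holds no HH library, and their 440 reads were not used. CH libraries held 369 reads in all (0 to 119, median 24.5) and HH libraries 864 (0 to 334, median 19). A share was computed for libraries with at least 10 reads, which were 9 CH and 8 HH, of which 9 CH and 4 HH lay in a sex and batch that held both genotypes. These allow 120 arrangements of the labels, so the smallest p an exact test could give was 0.00833. Of the 4 libraries above 100 reads, 3 were HH (334, 171 and 176 reads) and 1 was CH (119 reads). Intervals given for the reads of a library or a pool are 95% Wilson intervals and cover counting error only.

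**Figure D1:**
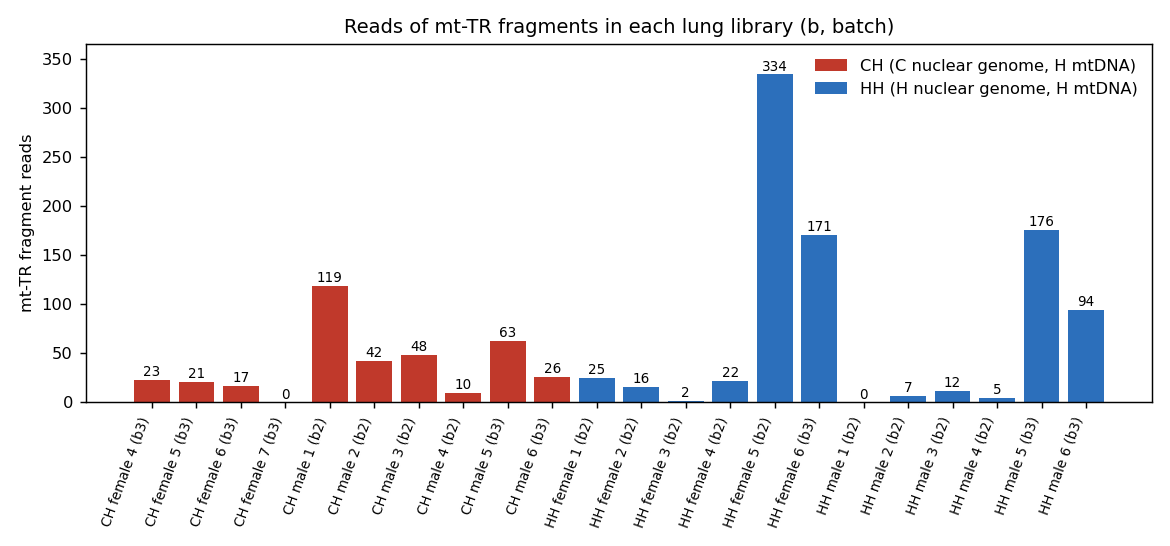
Reads of *mt-TR* fragments (vertical axis) in each of the 22 libraries, with the batch in parentheses; red bars are CH and blue bars HH. HH female replicate 5 held 334 reads, and CH female replicate 7 and HH male replicate 1 held 0.

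Mitochondrial tRNAs carry amino acids to the ribosomes inside mitochondria. They are transcribed from mtDNA, while the enzymes that trim and modify them and add the CCA end, to which the amino acid is attached, are encoded in the nucleus. When tRNAs are cut, some pieces persist as tRNA-derived fragments (tRF). Pieces that end at CCA are called 3′-tRF, and those whose ends both lie inside the molecule are called internal tRF or i-tRF.

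The gene *mt-Tr* (ENSMUSG00000064361.1) occupies bases 9808 to 9875 of chromosome M (+ strand) in GRCm38 (mm10) and is annotated as a mitochondrial tRNA, with 68 nt and no CCA. Once CCA is added, the mature molecule is 73 nt long from H mtDNA and 71 nt long from C mtDNA. The mature molecules are shown in DNA letters, with the stretch that differs between the mtDNA types and the CCA end in capitals.
H mtDNA: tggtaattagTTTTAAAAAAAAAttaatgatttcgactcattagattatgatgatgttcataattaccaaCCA
C mtDNA: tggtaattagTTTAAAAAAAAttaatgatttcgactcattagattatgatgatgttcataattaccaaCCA
Positions below count from 1 at the 5′ end of the H molecule, in which the anticodon stem begins at position 26, the anticodon TCG (UCG in RNA) occupies 33 to 35, and CCA occupies 71 to 73. All 263 sequences matched H *mt-TR* exactly and at 1 place. The first base lay at position 14 or later in every fragment, so the 5′ end of the molecule was not seen. A sequence absent from C *mt-TR* contributed 1 read in each genotype. Thus almost every fragment compared here has the same sequence in both mtDNA types.

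Fragments were of 2 main kinds, those that cover the anticodon and those that lie in the 3′ part of the molecule. For the former, the most read sequences are shown with the anticodon in capitals.
positions 26 to 47, 22 nt: aatgattTCGactcattagatt
positions 26 to 44, 19 nt: aatgattTCGactcattag
positions 22 to 50, 29 nt: aattaatgattTCGactcattagattatg
positions 22 to 42, 21 nt: aattaatgattTCGactcatt
The first had 11 reads in CH and 11 in HH, the second 7 and 14, the third 2 and 19, and the fourth 1 and 18. Of the 18 HH reads of the fourth, 14 came from HH female replicate 5. In the 3′ part, the most read sequence for each of the last 3 positions is shown with the bases of CCA in capitals.
positions 48 to 73, 26 nt: atgatgatgttcataattaccaaCCA
positions 50 to 72, 23 nt: gatgatgttcataattaccaaCC
positions 50 to 71, 22 nt: gatgatgttcataattaccaaC
Without the added CCA these lie on chromosome M at 9853 to 9875 (start at position 48) and 9855 to 9875 (start at position 50). The 26-nt fragment with the whole CCA had 21 reads in CH and 2 in HH. In CH it came from 4 libraries, with 10 reads in male replicate 5, 9 in female replicate 6 and 1 each in male replicates 1 and 3. The 2 HH reads came from female replicate 5. The 23-nt fragment that stops 1 nt before the last base had 17 reads in CH (6 each in male replicates 1 and 2, 4 in female replicate 4 and 1 in male replicate 4) and 2 in HH, again from female replicate 5. The 22-nt fragment that stops 2 nt before the last base did not follow this order, with 8 reads in CH and 13 in HH, of which 7 came from CH male replicate 3 and 12 from HH female replicate 5. Single libraries therefore supplied a large part of the reads of each named fragment.

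Reads that ended within CCA (positions 71 to 73) took a larger share in most CH libraries than in HH libraries of the same sex and batch, although the difference did not pass the test. In males of batch 2 the share was 18.5%, 31.0%, 58.3% and 50% in CH replicates 1 to 4 and 0% in HH replicate 3 (12 reads, 95% interval to 24.3%). In males of batch 3 it was 34.9% and 15.4% in CH and 0.5682% and 11.7% in HH. In females of batch 3 it was 21.7%, 0% and 52.9% in CH and 5.85% in the single HH library. All CH males lay above all HH males, while the CH females fell on both sides of the HH female. The mean difference over these 3 groups was 25.4 percentage points (95% interval -0.816 to 52.0, exact two-sided permutation test, p = 0.0583, adjusted p = 0.292 over 7 measures). HH females of batch 2, which no CH library matches, had shares of 40.0%, 6.25%, 31.8% and 11.1%, and thus overlapped the CH libraries. Across all 17 libraries the CH range (0% to 58.3%, median 31.0%) and the HH range (0% to 40.0%, median 8.66%) overlapped.

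Pooled over libraries, CCA-end reads made up 108 of 369 CH reads (29.3%, 24.9% to 34.1%) and 78 of 864 HH reads (9.03%, 7.29% to 11.1%). Without each of the 4 libraries above 100 reads in turn, the pooled difference of 20.2 percentage points ran from 18.1 (without HH male replicate 5) to 25.4 (without CH male replicate 1), and it was 18.0 without all 4, an alternative chosen after seeing the data. When each sequence of a genotype was counted once, the difference was 9.70 percentage points. Within HH the pooled share was 13.8% in females of batch 2 and 4.95% in the other libraries. Deeper and shallower libraries overlapped in this share, although its highest values came from libraries under 90 reads. The 4 HH libraries above 90 reads had shares of 0.5682% to 11.7%, and the single CH library of that depth had 18.5%. Under 90 reads the share ran from 0% to 40.0% in HH libraries and from 0% to 58.3% in CH libraries. The part of depth in the difference was not tested.

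**Figure D2:**
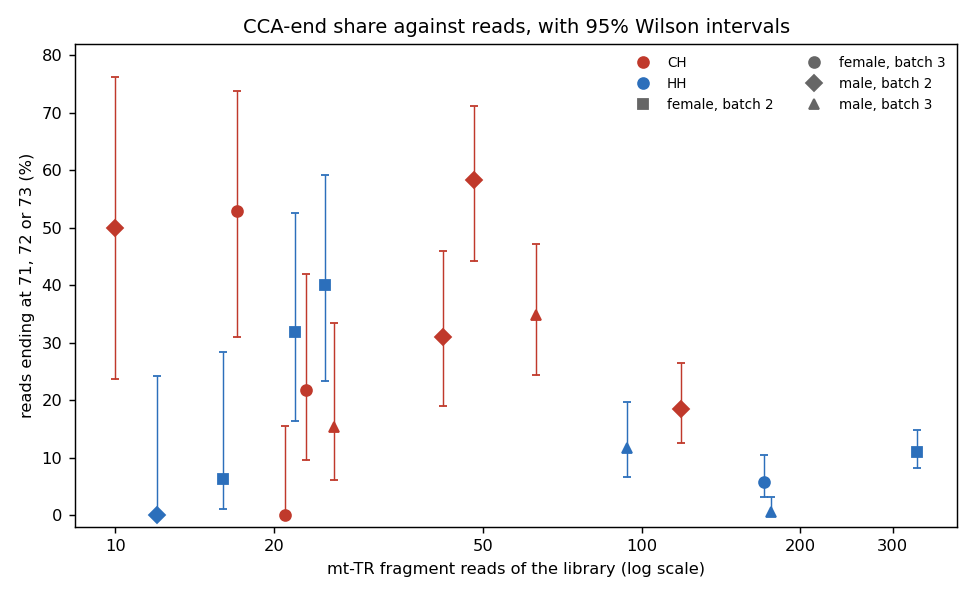
Share of reads ending at positions 71 to 73 (vertical axis, %) against the reads of the library (horizontal axis, log scale) for the 17 libraries with at least 10 reads; colours give the genotype, symbols sex and batch, and bars 95% Wilson intervals. HH libraries above 90 reads lie between 0.5682% and 11.7%, and the CH library with 119 reads lies at 18.5%.

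The state of the CCA end was read from the last 3 positions. In CH, 53 reads ended at position 73, 41 at position 72 and 14 at position 71, while in HH these numbers were 22, 34 and 22. The last base thus accounted for 49.1% of CCA-end reads in CH (39.8% to 58.4%) and 28.2% in HH (19.4% to 39.0%). The HH split rests on HH female replicate 5, which held 18 of the 22 HH reads at position 71. Without it, HH had 11, 26 and 4 reads at positions 73, 72 and 71, so that the last base accounted for 26.8% of CCA-end reads and position 72 for 63.4%, against 37.96% at position 72 in CH. Of all reads, those at position 73 were 14.4% in CH (11.2% to 18.3%) and 2.55% in HH (1.69% to 3.83%). By library, the share at position 73 was 7.56%, 7.14%, 33.3% and 30% in CH males of batch 2, 20.6% and 0% in CH males of batch 3, and 0%, 0% and 52.9% in CH females of batch 3. In HH males and the HH female of batch 3 there were 0 such reads among 465 (95% Wilson upper limit 0.819%). All 22 HH reads at position 73 came from females of batch 2, in which the share was 20.0%, 6.25%, 22.7% and 3.29%. HH libraries without a CH counterpart therefore held the last base at levels within the CH range.

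With libraries as the unit, the share at position 73 was 15.4 percentage points higher in CH (95% interval -12.01 to 43.1, exact two-sided permutation test, p = 0.225, adjusted p = 0.525). Of the 9 CH libraries, 3 held 0 such reads. In the count model, position 73 was the 1 end position called among 29 tested (3.45%), with 53 reads in CH and 22 in HH and an edgeR adjusted p of 0.00706. Since HH had 0 reads in the sexes and batches that CH also covers, the fitted fold change is no measure of size. The call was lost without CH male replicate 5 or without HH female replicate 6, in males alone and with a replicate block. It was also lost with no covariate or with batch alone, settings that let HH females of batch 2 enter the comparison. The replicate block lets some of them enter too, since it pairs CH females 4 and 5 of batch 3 with HH females 4 and 5 of batch 2. Among CCA-end reads alone, libraries with at least 5 such reads were 7 CH and 5 HH, of which only 3 and 2 could be compared within sex and batch. Their mean difference in the last-base share was 53.9 percentage points (exact two-sided permutation test, p = 0.5), in a design whose smallest p was 0.167.

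The 35 fragments that ended at 71 to 73 formed a nested set whose 5′ ends lay between positions 34 and 57. CH held 26 of them and HH 22, with 13 in common. Of all 263 fragments CH held 132 and HH 220, with 89 in common, and the overlap was not tested. Among pooled CCA-end reads the main start was position 50 in both genotypes (25% in CH and 25.6% in HH). It was followed by position 48 in CH (22.2%, against 7.69% in HH) and position 54 in HH (17.9%, against 2.78% in CH). The HH share at position 50 rests largely on HH female replicate 5, which held 20 of all 27 HH reads that started there, whatever their end. Start position 48 was the 1 start called among 26 tested (3.85%), with 24 reads in CH and 6 in HH (edgeR adjusted p = 0.00952). It met the minimum of 10 reads through CH alone, so its direction carries no result. In the sexes and batches that CH also covers, HH had 0 such reads among 465. By library, the 24 reads were 9 in CH female replicate 6, 10 in CH male replicate 5, 3 in CH male replicate 2 and 1 each in CH male replicates 1 and 3. The HH reads were 4 in female replicate 5 and 2 in female replicate 1, both of batch 2, and the other HH libraries had 0. This start was thus concentrated in a pair of CH libraries, and the call was lost without either of them, and without HH female replicate 6, HH male replicate 5 or HH male replicate 6. It was also lost with DESeq2 (lowest adjusted p = 0.926), with batch alone or no covariate, in males alone and with a replicate block. All reads that started at position 48 ended at 72 or 73, and 21 of the 24 CH reads were the 26-nt fragment, so the calls at positions 48 and 73 rest in part on the same reads.

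**Figure D3:**
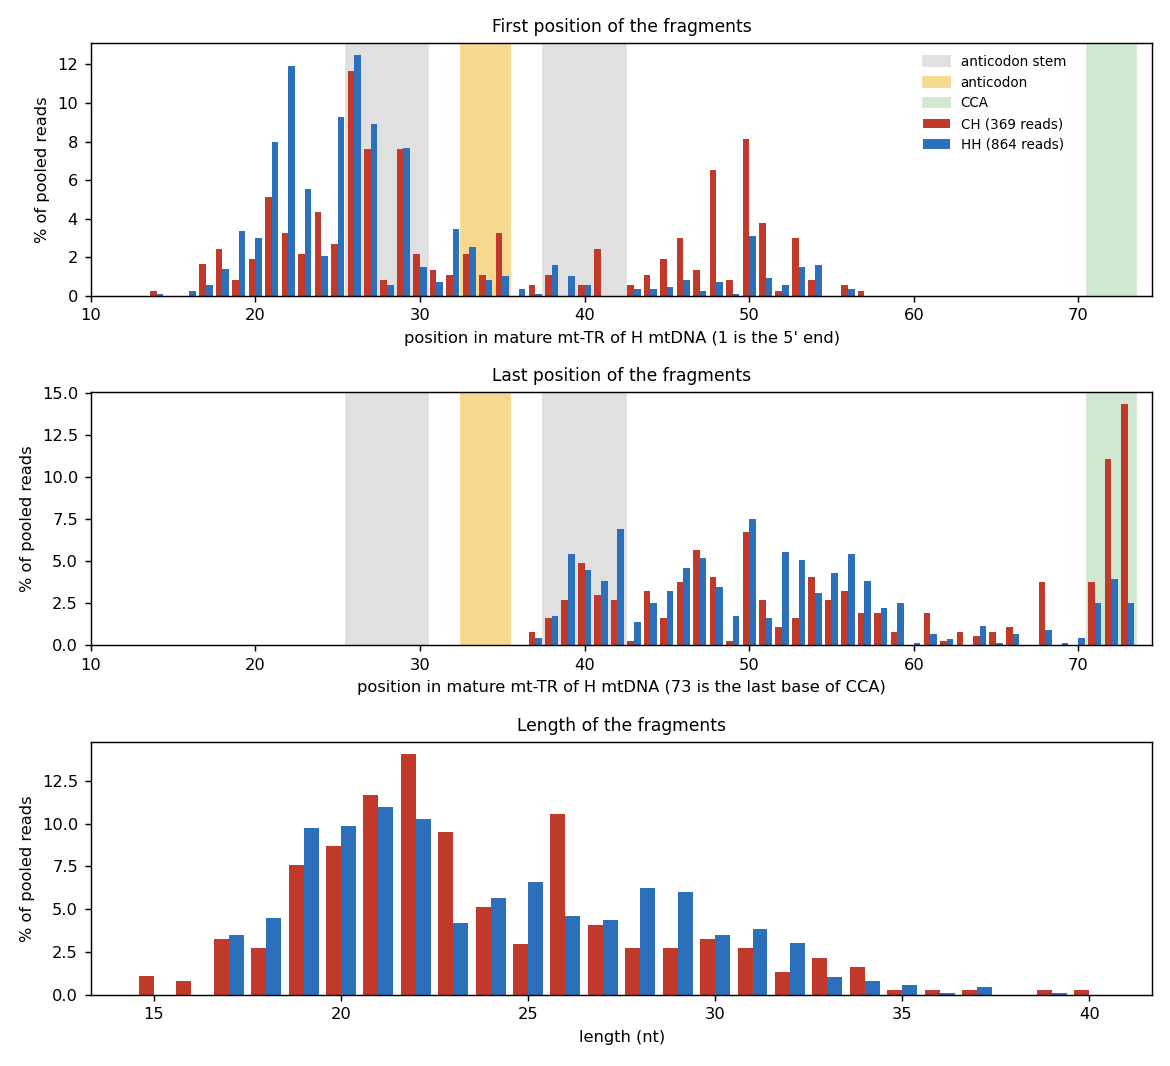
Pooled reads of CH (red, 369 reads) and HH (blue, 864 reads) by first position, last position and length (horizontal axes), as % of the reads of the genotype (vertical axes); shading marks the anticodon stem, the anticodon and CCA. Start 26 is the highest in both genotypes (11.7% in CH and 12.5% in HH). CH has further peaks at starts 48 (6.50%) and 50 (8.13%) and at ends 72 (11.1%) and 73 (14.4%), and HH at start 22 (11.9%).

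Reads that began before the anticodon arm (before position 26) took lower shares in most CH libraries than in HH libraries of the same sex and batch, again without passing the test. In males of batch 2 the share was 27.7%, 35.7%, 12.5% and 10.0% in CH and 25% in HH. In males of batch 3 it was 19.0% and 23.1% in CH and 37.5% and 51.1% in HH. In females of batch 3 it was 47.8%, 19.0% and 17.6% in CH and 46.2% in HH. The genotypes were apart in males of batch 3 and overlapped in the other 2 groups. The mean difference was -15.5 percentage points (95% interval -31.98 to 6.13, exact two-sided permutation test, p = 0.0833, adjusted p = 0.292). HH females of batch 2 ranged from 18.8% to 52.1%. Pooled shares were 24.7% in CH (20.5% to 29.3%) and 45.5% in HH (42.2% to 48.8%), and leaving out each library above 100 reads kept the difference between -22.9 and -16.7 percentage points. When each sequence was counted once, the difference shrank to -9.52 percentage points over libraries (exact two-sided permutation test, p = 0.383), and in the pools, with shares of 35.6% in CH and 45% in HH, to -9.39. In HH this share was higher in deeper libraries, since the 4 above 90 reads had 37.5% to 52.1% and the other 4, all of batch 2, had 18.8% to 32%. The CH library with 119 reads had 27.7%, inside the range of the other CH libraries (10% to 47.8%). The part of depth in this difference was not tested.

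Individual 5′ ends before the arm showed where these reads lay. Position 22 began 12 reads in CH (3.25%) and 103 in HH (11.9%), position 25 began 10 (2.71%) and 80 (9.26%), and position 19 began 3 (0.813%) and 29 (3.36%). Position 21 began 19 (5.15%) and 69 (7.99%), position 23 began 8 (2.17%) and 48 (5.56%), and position 20 began 7 (1.90%) and 26 (3.01%). Other starts in the same region leaned the other way, with 6 CH reads (1.63%) and 5 HH reads (0.579%) at position 17, 9 (2.44%) and 12 (1.39%) at position 18, and 16 (4.34%) and 18 (2.08%) at position 24. In the sexes and batches shared by both genotypes, position 21 began 5.15% of CH reads and 5.38% of HH reads. None of the tested positions before the arm passed the test (edgeR adjusted p = 0.372 at position 22, 0.618 at 25, 0.16 at 19, 0.787 at 21, 0.627 at 23, 0.699 at 20, 0.353 at 17, 0.967 at 18 and 0.626 at 24). Position 26, the first base of the anticodon stem, was the most frequent start in both genotypes, with 43 CH reads (11.7%) and 108 HH reads (12.5%). For starts between 26 and 33 together, pooled shares were 34.4% in CH and 37.8% in HH, and by library the shares ran from 10.0% to 66.7% in CH and from 22.7% to 68.8% in HH. The mean difference was -8.64 percentage points (95% interval -35.7 to 15.6, exact two-sided permutation test, p = 0.458), so no difference of this class was detected.

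The anticodon lay inside 218 of 369 CH reads (59.1%) and 720 of 864 HH reads (83.3%), a class described after the values were seen and not tested. In males of batch 2 the share was 72.3%, 50%, 33.3% and 20.0% in CH and 75.0% in HH. In males of batch 3 it was 46.03% and 84.6% in CH and 84.7% and 87.2% in HH, and in females of batch 3 it was 69.6%, 85.7% and 47.1% in CH and 88.9% in HH. Each CH library lay below the HH libraries of its sex and batch, but in every group the nearest CH and HH libraries differed by less than their counting error. Among HH females of batch 2 the shares were 56.0%, 87.5%, 45.5% and 82.9%, which overlap with CH. Because CCA-end fragments start mostly beyond the anticodon, this share and the CCA-end share are not independent.

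**Figure D4:**
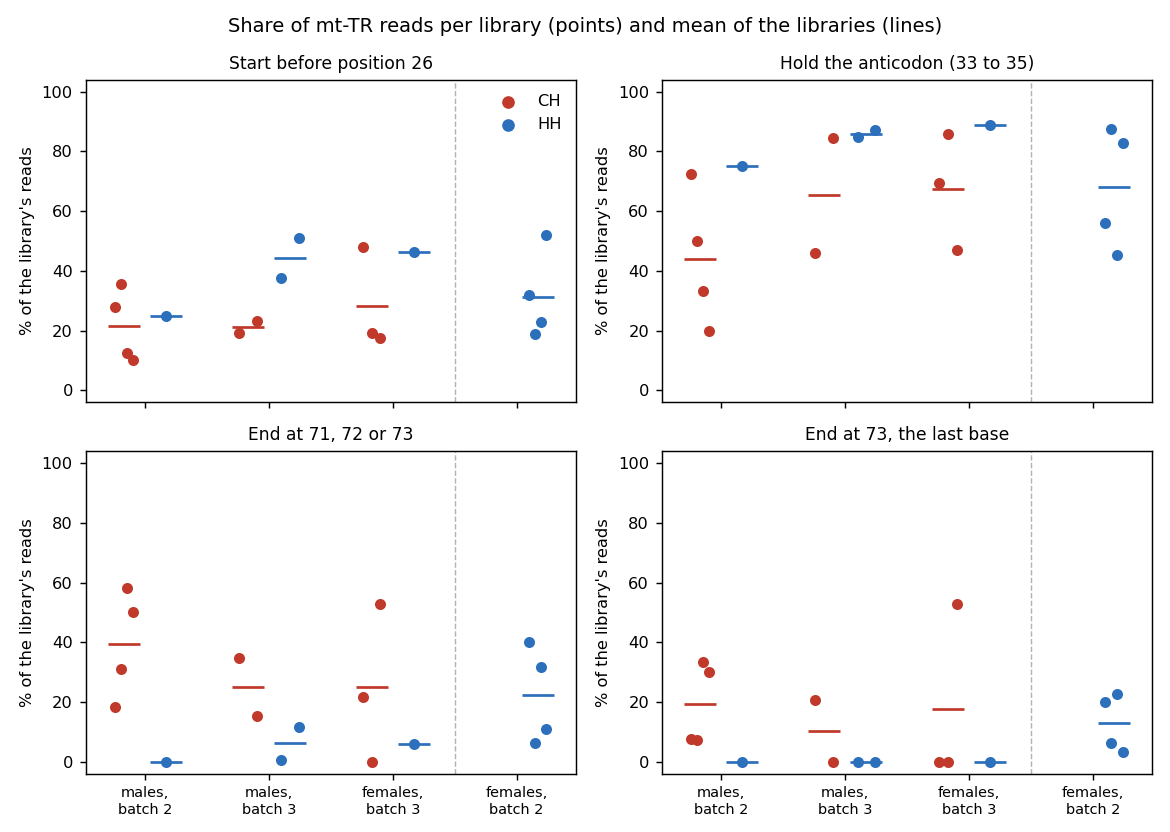
Share of each library's reads (vertical axes, %) that start before position 26, hold the anticodon, end at 71 to 73 or end at 73, by sex and batch (horizontal axes); points are libraries with at least 10 reads, lines are their means, and the dashed line separates HH females of batch 2, which have no CH counterpart. At position 73, HH libraries left of the dashed line are at 0%, and those right of it lie between 3.29% and 22.7%.

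Fragment length did not separate the genotypes. Mean length per library ran from 21.6 to 25.7 nt in CH (median 24.2, n = 9) and from 23.1 to 26.2 nt in HH (median 24.0, n = 8). The mean difference within sex and batch was -0.277 nt (95% interval -2.90 to 1.59, exact two-sided permutation test, p = 0.85). Its direction differed between groups, with -2.48 nt in males of batch 2, 2.29 nt in males of batch 3 and -1.35 nt in females of batch 3. Reads of 30 nt or more made up 4.35% to 23.1% of CH libraries and 6.38% to 25% of HH libraries, with a mean difference of -2.12 percentage points (95% interval -13.6 to 6.56, exact two-sided permutation test, p = 0.658). Pooled, they were 12.5% in CH and 13.4% in HH. The most frequent lengths were 22, 21 and 26 nt in CH and 21, 22 and 20 nt in HH, and 26 nt held 10.6% of CH reads (39 reads) against 4.63% of HH reads (40 reads). Of the CH reads of 26 nt, 21 were the fragment from 48 to 73.

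Whole profiles were compared as well, and none passed the test. The share of reads that would have to move for the mean profiles to match was 29.4% for lengths, 48.4% for start positions and 45.6% for end positions. Exact permutation tests within sex and batch gave p = 0.633, 0.175 and 0.25, and adjusted p = 0.633, 0.375 and 0.375. The most read sequence of a library took 3.98% to 52.9% of its reads, and distances between libraries of the same genotype were not computed.

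For single sequences, 37 of the 263 fragments had at least 10 reads, and edgeR called 0 of them (0%) at an adjusted p under 0.05, while 10 had an unadjusted p under 0.05 and the lowest adjusted p was 0.0721. Of these 10, named after their values were seen, 3 were higher in CH and all 3 ended at 72 or 73. These 3 met the minimum of 10 reads through CH alone, with 1 or 2 reads in HH, so their direction carries no result. They were the fragments from 48 to 73 and from 50 to 72 given above and a 21-nt fragment with 10 CH reads and 1 HH read.
positions 53 to 73, 21 nt: gatgttcataattaccaaCCA
Among the 37 tested, 6 fragments (16.2%) ended at 71 to 73 and 30 held the anticodon. The other 7 were lower in CH, but they met the minimum of 10 reads through HH alone (10 to 14 reads), and 6 of them had 0 reads in CH. Their direction therefore carries no result either. Of these 7, 1 lay at the CCA end.
positions 54 to 72, 19 nt: atgttcataattaccaaCC
That fragment had 0 reads in CH and 10 in 4 HH libraries, so it too met the minimum through HH alone. Of all fragments, 89 were read in both genotypes and held 77.2% of CH reads and 51.4% of HH reads. A further 43 were read in CH libraries alone (32.6% of CH fragments) and 131 in HH libraries alone (59.55% of HH fragments). HH also held more reads, 864 against 369. Of the 263 fragments, 122 were seen in 1 library.

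The same change of nuclear genome was also available with C mtDNA, in the CC and HC libraries of batches 2 and 3 (10 and 8 libraries with at least 10 reads in a shared sex and batch). There the CCA-end share differed by 1.33 percentage points between the C and the H nuclear genome (permutation test, p = 0.827), against 25.4 with H mtDNA. The difference between these differences was 24.1 percentage points (permutation test, p = 0.0904, adjusted p = 0.362 over 7 measures). For starts before the anticodon arm the nuclear difference was 1.54 percentage points with C mtDNA and -15.5 with H mtDNA, a difference of -17.1 (permutation test, p = 0.103, adjusted p = 0.362). For the last base it was 6.71 with C mtDNA and 15.4 with H mtDNA (difference 8.64, permutation test, p = 0.499). With C mtDNA the nuclear difference in mean fragment length was -0.949 nt (permutation test, p = 0.0497), against -0.277 nt with H mtDNA (difference 0.673 nt, permutation test, p = 0.496). In each of the 7 measures the test of this difference between mtDNA types missed the threshold. With C mtDNA the C nuclear genome is the wild type (CC) and the H nuclear genome the MNX strain (HC). With H mtDNA this order is reversed. A dependence on mtDNA therefore cannot be told apart from a difference between MNX and wild-type mice.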

How the data were processed

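Small RNA from mouse lung was sequenced by single-adapter circularization. The authors deposited raw counts of reads for every unique *mt-TR* sequence, by library. Their processing notes name FastQC 0.12.1, UMI-tools 1.1.6, cutadapt 5.0, BWA 0.7.18, Bowtie 1.3.1 and mm10. The methods describe exact mapping to mature *mt-TR* of the own mtDNA type and removal of reads with other matches, and whether each step, including that for molecular identifiers, was applied to lung is not stated. The design text of the series names liver, while title, labels and methods name lung. Counts cover *mt-TR* alone, so the depth of whole libraries is unknown.

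Genotype, sex, replicate and batch came from the labels. No 2 libraries had identical counts. Sequences were placed on H *mt-TR*, assembled from the study's aligned sequences, and gene coordinates came from GENCODE for GRCm38. Shares per library (at least 10 reads; at least 5 CCA-end reads for the last-base share among them) were compared by exact permutation within sex and batch, with the differences weighted over these groups, intervals by inversion of the test and Benjamini-Hochberg adjustment over 7 measures or 3 profiles. Counts of fragments, starts and ends with at least 10 reads were tested with edgeR 4.0.16 (R 4.3.3; quasi-likelihood, library size alone, sex and batch as covariate, call at a Benjamini-Hochberg adjusted p below 0.05), and DESeq2 1.42.0 was an alternative. The code was tested on simulated data. Other work used Python 3.11.15, numpy 2.4.6, pandas 2.3.3 and scipy 1.17.1. Named fragments were, by rule, the 5 with the most reads, the 2 with the most reads in each genotype, the most read ending at 73, 72 and 71, and called positions. Libraries, measures and rules were chosen with earlier results of these data known.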

Additional observations from a re-analysis of the deposited data

How the results depend on the processing

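Few reads per library and the uneven spread of genotypes over sex and batch limit these comparisons, and males of batch 2 and females of batch 3 rest on 1 HH library each. The share ending at CCA remained higher in CH under each alternative tried, from 13.4 percentage points with at least 20 reads per library (exact permutation test, p = 0.278) upward. Its unadjusted exact p fell under 0.05 with at least 1 read (26.8, p = 0.0143), distinct sequences (19.2, p = 0.0333), batch strata (20.4, p = 0.0279) and males alone (28.1, p = 0.0333), and without 1 library it ran from 19.0 to 29.3, with p under 0.05 without CH female replicate 5 (29.01) or HH female replicate 6 (28.1). Starts before the anticodon arm passed an unadjusted exact p of 0.05 with batch strata (-13.7, p = 0.0387) and ran from -21.0 to -12.3 without 1 library (p = 0.0444 without CH female replicate 4), but the difference shrank to -9.52 with distinct sequences (p = 0.383). The causes were not tested.

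Differences that missed the threshold changed sign as follows. Mean length was 0.544 nt with at least 20 reads, 0.172 in males, 0.730 in batch 3, 0.171 without libraries above 100 reads, and -0.763 to 0.730 without 1 library (0.172 without HH female replicate 6, 0.730 without HH male replicate 3). The share of 30 nt or more was 1.16 with at least 1 read, 3.32 with at least 20, 2.42 in batch 3, 1.19 without libraries above 100 reads, 3.12 with a limit of 25 nt, and -5.49 to 2.42 without 1 library. Its pooled difference of -0.960 ran from -2.25 to 0.574 without 1 library (0.111 without HH male replicate 5) and was 1.98 without all libraries above 100 reads. Starts from 26 to 33 gave 2.16 with at least 20 reads, 0.0191 in batch 3 and -15.5 to 0.0191 without 1 library.

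Fragments called were 7 with TMM, 1 with DESeq2, 9 with batch alone, 10 without covariate and 0 to 2 without 1 library (2 without CH female replicate 5, 1 without CH male replicate 6 or HH female replicate 6). Start positions called were 0 with DESeq2, batch alone, no covariate, males alone or the replicate block, and 0 to 2 without 1 library (2, positions 19 and 48, without CH male replicate 1). End positions called were 0 with batch alone, no covariate, males alone or the replicate block, and 0 to 1 without 1 library. Where no position was called, 0 to 4 starts and 1 to 5 ends had an unadjusted p under 0.05 in edgeR or DESeq2. Batch alone and no covariate let HH females of batch 2 enter. The replicate block lets some of them enter too, since it pairs CH females 4 and 5 of batch 3 with HH females 4 and 5 of batch 2. For the other settings the cause was not tested. No feature set could be fitted after filterByExpr, so that alternative gave no values.

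Deviations of same-numbered libraries correlated from -0.352 to 0.171, with 1 of 6 pairs above 0.1. Libraries had few reads, and female pairs 4 and 5 join different batches, so this check cannot decide whether replicate numbers mark pairs. With the replicate block the CCA-end difference was 20.4 percentage points (exact permutation test, p = 0.219).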
